A study of Mus musculus with 6 samples.

Results

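The genes described here are 10 genes of the pericentral Wnt programme of the liver, Glul, Oat, Slc1a2, Rhbg, Axin2, Lgr5, Rnf43, Znrf3, Tbx3 and Ctnnb1. Every probe that is not a control and carries one of these symbols in the authors' annotation table was taken, which gave 14 of the 55681 probes on the array. A probe counted as detected if the scanner software flagged it as well above background in all 3 mice of one group or of both. By this measure 10 of the 14 probes, from 9 of the 10 genes, were detected, beside 22731 probes and 13286 genes on the whole array. Axin2 was the gene without a detected probe.

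Male B6C3F1 mice aged 7 weeks were given corn oil by gavage, either alone (control, 3 mice) or with trichloroethylene (TCE) dissolved in it at 1000 mg/kg b.w. per day (TCE, 3 mice), for 5 days. TCE is a chlorinated solvent, and the arrays were run to find liver mRNAs that differ after exposure. Each array held the liver RNA of 1 mouse, which makes n 3 animals per group. Signals are given on the log2 scale after quantile normalization, on which a difference of 1 is a 2-fold change, and they compare a probe between mice but not one probe with another. The number of probes well above background was 23538, 24934 and 24126 in control mice 1, 2 and 3, and 24968, 23573 and 23649 in TCE mice 1, 2 and 3. Control mouse 1 was on slide 1 and the other 5 arrays on slide 2, so that this mouse and its slide cannot be told apart.

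In the liver lobule, hepatocytes next to the central vein receive Wnt ligands and R-spondins, which come largely from endothelial cells of that vein. A Wnt signal stops the destruction complex from degrading β-catenin, which then binds TCF/LEF factors at target genes, and the pericentral cells turn on glutamine synthesis, ornithine breakdown and several cytochrome P450 enzymes. The pathway limits itself, because its targets include Axin2, a scaffold of the destruction complex, and Rnf43 and Znrf3, membrane ubiquitin ligases that remove Wnt receptors.

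All 9 detected member genes had a lower fitted mean in TCE mice, although Tbx3 turned to 0.03 after scaling to the 75th percentile and also turned sign without single mice, and Znrf3 entered this count through the control group, since its probe was well above background on 3 control but only 2 TCE arrays. The median log2 fold change of the members was -0.68, while the median over the 13286 detected genes was 0.02 and 46.9% of them were lower. The threshold asked for an adjusted p (limma, Benjamini-Hochberg) of at most 0.05 together with a change of at least 2-fold. Of the 9 members 2 fell past it, Slc1a2 and Lgr5, and 0.429% of all detected genes did so in that direction. Without the condition on fold the same 2 members passed, against 0.587% of genes. At an unadjusted limma p below 0.05 there were 6 members, against 7.11% of genes. The groups did not overlap, with every TCE mouse below every control mouse, for 6 members, against 10.8% of genes. With 3 animals against 3, an exact permutation test of a single gene (two-sided) cannot go below p = 0.1. In whole liver, fewer cells of a type and less RNA per cell cannot be told apart.

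**Figure D1:**
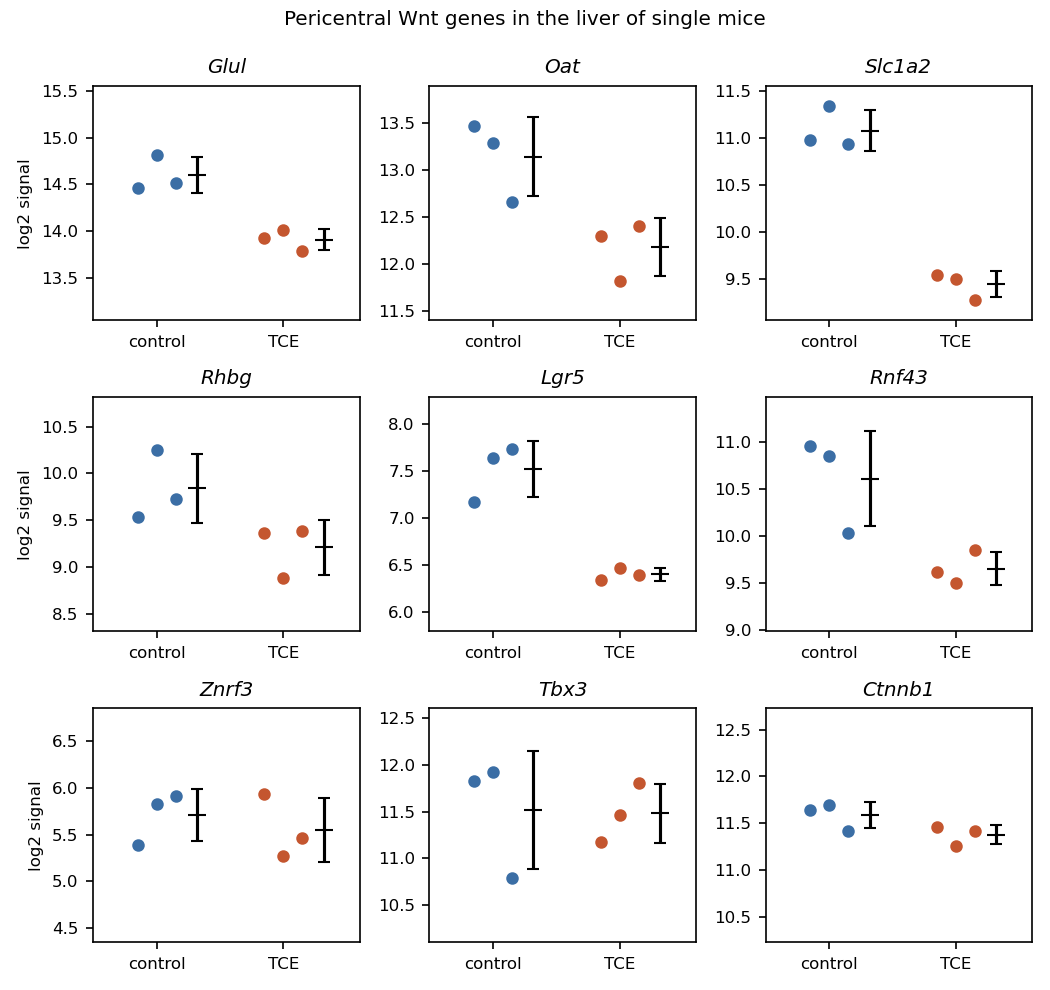
Log2 signal (vertical axis, quantile normalized) of the 9 detected member genes in single control (blue) and TCE (orange) mice, in order of mouse number from left to right, with the mean and SD of each group (n = 3) in black. Every panel spans the same number of log2 units, and Slc1a2 has the widest gap between the groups, 1.40.

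Slc1a2 encodes a glutamate transporter of the plasma membrane, which in the liver is found on pericentral hepatocytes. Its brightest probe had log2 signals of 10.98, 11.34 and 10.94 in control mice 1, 2 and 3 and of 9.54, 9.50 and 9.27 in TCE mice 1, 2 and 3. The lowest control mouse stood 1.40 above the highest TCE mouse. The means were 11.08 ± 0.22 (SD, n = 3) and 9.44 ± 0.14 (SD, n = 3). Slc1a2 fell by 1.65 on the log2 scale (SE 0.15, 95% interval -2.02 to -1.27, limma adjusted p = 0.00747), which is 3.13-fold lower, and 0.331% of detected genes had a change as low or lower. It was past the threshold without each of the 6 mice in turn, with changes between -1.72 and -1.52. Within slide 2, which leaves out control mouse 1, or with slide as a block, the change was -1.70 (limma adjusted p = 0.0319). The methods' t-test after Benjamini-Hochberg ended the call (adjusted p = 0.0623).

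The other probes of Slc1a2 lay further along the gene. The second gave 7.07, 7.51 and 6.93 in control mice and 6.04, 5.82 and 5.74 in TCE mice. Its groups were also apart, and its log2 fold change was -1.30 (SE 0.18, limma adjusted p = 0.0282). The dimmest gave 4.79, 5.40 and 5.25 in control mice and 3.64, 3.43 and 4.12 in TCE mice. This probe was well above background on 2 control arrays and on 0 TCE arrays, so that it was not tested and its signal was at least 1.3-fold lower in TCE mice. That limit sets the control mean against the lowest signal that counted as well above background on each TCE array. Control mouse 1, at 4.79, was below the lowest such signal of its own array, 5.02. The control mean thus holds 1 value not measured above background, and the limit is imprecise.

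The 3 Slc1a2 probes are shown by their first 30 of 60 bases, since their separate targets carry the comparison. On mm9 they lie on the plus strand of chromosome 2, at chr2:102617752-102617811 (brightest), chr2:102622252-102622311 (second) and chr2:102626380-102626439 (dimmest). The array annotation assigns the brightest to one Slc1a2 transcript and the other 2 to another.
brightest: aagcaactctaatcagtgtgtctatgccgc
second: gtagaatgtttcagagtttcatgggtgccc
dimmest: aacccagtttccagcattcagacatcagta

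Glul encodes glutamine synthetase, which joins ammonium to glutamate in the innermost ring of pericentral hepatocytes. The log2 signals of Glul were 14.46, 14.81 and 14.52 in control mice and 13.93, 14.01 and 13.79 in TCE mice. No TCE mouse reached the control range, and the gap between the groups was 0.45. The means were 14.6 ± 0.19 and 13.91 ± 0.11 (SD, n = 3 each). The log2 fold change of -0.68 (SE 0.14, 95% interval -1.02 to -0.35) did not pass the test, with a limma adjusted p of 0.074. That p ran from 0.118 to 0.224 when 1 mouse was left out, and it was 0.0455 with array weights and 0.0344 with a variance prior made both robust and dependent on intensity. Each of these settings brought the members past an adjusted p of 0.05 to 3. The share of all genes past it is given for the main analysis only, so no share stands beside this count.

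Oat encodes ornithine aminotransferase, a mitochondrial enzyme that leads ornithine towards glutamate. Its log2 signals were 13.47, 13.29 and 12.66 in control mice and 12.30, 11.82 and 12.40 in TCE mice. Control mouse 3 was the lowest control and stood 0.26 above the highest TCE mouse. The log2 fold change was -0.96 (SE 0.26, limma adjusted p = 0.133), so Oat did not pass the test. Rhbg encodes an ammonium transporter of the basolateral membrane. It had 9.54, 10.25 and 9.73 in control mice and 9.36, 8.88 and 9.39 in TCE mice. The groups were apart by 0.14, and the log2 fold change of -0.62 (SE 0.23, limma adjusted p = 0.242) did not pass.

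Lgr5 is a receptor for R-spondins that strengthens Wnt signals and is itself a Wnt target. Its detected probe had log2 signals of 7.17, 7.64 and 7.74 in control mice and of 6.34, 6.47 and 6.39 in TCE mice. The TCE mice lay close together, SD 0.07 against 0.30 in control mice, and 0.70 below the lowest control mouse. Lgr5 fell by 1.11 on the log2 scale (SE 0.17, 95% interval -1.53 to -0.70, limma adjusted p = 0.0351), which is 2.17-fold lower. The call held within slide 2 or with slide as a block, both without control mouse 1 (-1.29, adjusted p = 0.0279), and was lost without each of the other 5 mice, where the adjusted p reached 0.145. With another background correction the log2 fold change was -0.70 (adjusted p = 0.0711), and the call was also lost with no filter on dim probes (0.123) and in the methods' t-test after Benjamini-Hochberg (0.11).

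The other Lgr5 probe, taken from a cDNA clone, was well above background on 0 arrays and gave 2.66 to 2.74 in all 6 mice. It therefore had no measured level in either group. The detected probe is at chr10:114887403-114887462 and the clone's at chr10:114900686-114900745 (mm9, minus strand). The first 30 bases of each are given, since only one of these targets gave a signal.
detected: catgtaaatacgtagtgcttgtaaatagat
not detected: acctctagtgcttatatagaaacttgtgtg

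Rnf43 had log2 signals of 10.96, 10.85 and 10.03 in control mice and 9.61, 9.50 and 9.85 in TCE mice. As for Oat, control mouse 3 was the lowest control, here 0.18 above the highest TCE mouse. The log2 fold change was -0.96 (SE 0.26, limma adjusted p = 0.139), which did not pass the test. Znrf3, the related ligase, had a faint probe that was well above background on 3 control and 2 TCE arrays, with 5.39, 5.83 and 5.91 in control mice and 5.93, 5.27 and 5.46 in TCE mice. Its groups overlapped (log2 fold change -0.16, 95% interval -0.70 to 0.38, limma adjusted p = 0.752), and the value ran from -0.35 without TCE mouse 1 to -0.02 without TCE mouse 2.

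Axin2, often used as a readout of Wnt signalling, could not be compared. Its brighter probe gave 4.36, 4.98 and 3.96 in control mice and 4.63, 3.93 and 2.52 in TCE mice. It was well above background on 1 control array and on 0 TCE arrays. The other probe was well above background on 0 arrays. No fold change is given for it, because the signals were at the level where the array stops measuring.

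Tbx3, a T-box transcription factor and Wnt target of pericentral hepatocytes, had 11.83, 11.92 and 10.79 in control mice and 11.18, 11.46 and 11.80 in TCE mice. Control mouse 3 was below all TCE mice, the other control mice were above them, and the log2 fold change was -0.04 (SE 0.33, 95% interval -0.84 to 0.77, limma adjusted p = 0.969). The sign of this value turned with the scaling, to 0.03 after scaling to the 75th percentile, and it ran from -0.40 without control mouse 3 to 0.17 without control mouse 2, with 0.12 without control mouse 1 and 0.11 without TCE mouse 1. Ctnnb1 encodes β-catenin, which is regulated mainly by protein degradation. It had 11.64, 11.70 and 11.42 in control mice and 11.46, 11.26 and 11.42 in TCE mice. The groups overlapped, and the interval of the log2 fold change, -0.51 to 0.10 around -0.21, holds no 2-fold change (limma adjusted p = 0.454).

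**Figure D2:**
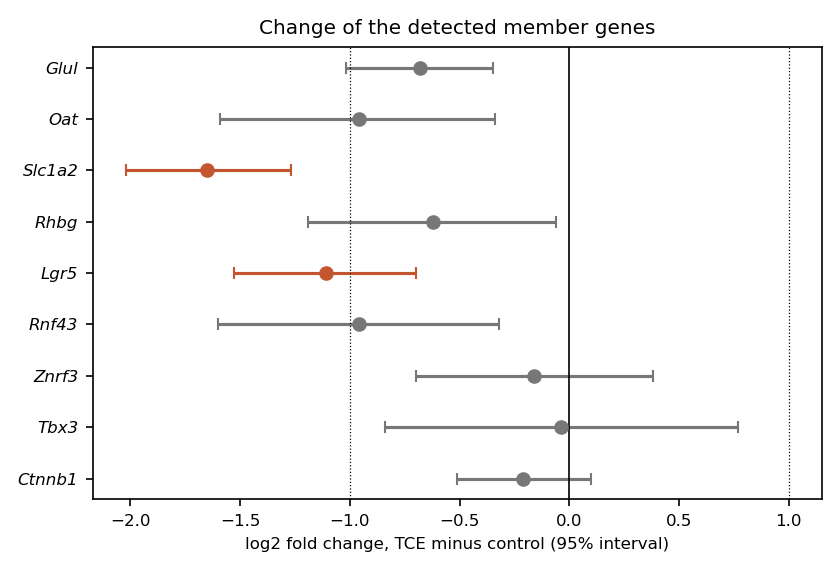
Log2 fold change of TCE against control mice (horizontal axis) with its 95% interval from limma for the 9 detected member genes, in orange for an adjusted p of 0.05 or less and grey otherwise, with dotted lines at 2-fold. Slc1a2 (-1.65) and Lgr5 (-1.11) are in orange, and all 9 points lie below 0, although that of Tbx3 turned sign after scaling to the 75th percentile and Znrf3 was detected through the control group.

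Relative to the control mean of each gene, the median over the 9 detected members was -0.11, 0.21 and -0.15 in control mice 1, 2 and 3 and -0.66, -0.95 and -0.74 in TCE mice 1, 2 and 3. All 3 TCE mice were thus lower than all 3 control mice. TCE mouse 2 had 9 of 9 members below the control mean, and TCE mice 1 and 3 had 8 of 9, while control mice 1, 2 and 3 had 5, 0 and 7 of 9. Within groups the correlations between members differed in size and sign. Over the 6 mice, after each group's mean was taken off, Glul and Slc1a2 correlated at r = 0.95, Oat and Rnf43 at 0.92, Ctnnb1 and Oat at 0.92, and Rnf43 and Tbx3 at 0.94. Lgr5 ran the other way from Oat (r = -0.72) and Rnf43 (r = -0.69). These pairs were picked as those with the highest and the lowest r among all member pairs, and no r was tested. The values describe 6 mice, and the genes correlated share their arrays and scaling.

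The detected genes with the profile most like that of Glul over the 6 mice, by Pearson r, were Il12rb1, Slc26a10, F11, Ubr3 and 2810459M11Rik, with r from 0.992 to 0.996. For Lgr5 they were Ccdc28b, Dock6, Lancl1, Kantr and Enho, with r from 0.995 to 0.997. No other member was among these 10 genes. The correlations include the difference between the groups, and of these genes Il12rb1 (limma adjusted p = 0.0269), Kantr (0.0465) and Enho (0.0408) had an adjusted p below 0.05.

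The other genes of the pathway were taken by role. Of 25 Wnt ligands, R-spondins and secretion factors, 11 were detected and 0 passed an adjusted p of 0.05 in limma, with a median log2 fold change of -0.24, which was -0.08 without TCE mouse 1 and -0.08 without TCE mouse 3. List medians without 1 mouse, and the values of Wnt9b and Cdc73 without 1 mouse, were added after the data were examined. At an unadjusted p below 0.05 there were 1 lower, against 7.11% of all genes, and 1 higher, against 12.0%. Porcn, which attaches the lipid that Wnt proteins need for secretion, was at -0.65 on the log2 scale (limma adjusted p = 0.0895), and Wnt5a at 0.46 (0.179), or 0.18 with another background correction. Rspo3, an R-spondin of the central vein, had log2 signals of 8.49, 8.79 and 8.79 in control mice and 8.34, 8.61 and 8.18 in TCE mice, with groups that overlapped. Wnt9a was at 0.54 (limma adjusted p = 0.392), at 0.20 with that correction, and at 0.30 without TCE mouse 2 and 0.83 without TCE mouse 3. The ligands Wnt2 and Wnt9b were looked at after their values were seen, as the Wnt ligands known from liver endothelium. Wnt9b had 6.13, 6.06 and 5.67 in control mice and 4.71, 5.88 and 6.19 in TCE mice and was well above background on 3 control and 2 TCE arrays. Its value of -0.36 (limma adjusted p = 0.67) turned to 0.08 without TCE mouse 1 and was -0.66 without TCE mouse 3. Wnt2 was well above background on 1 control and 1 TCE array.

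Among 17 receptors and co-receptors 9 were detected, and Fzd8, a Frizzled receptor that binds Wnt ligands, was the 1 that fell, against 0.587% of all genes. Groups were apart and lower for 1, Fzd8, against 10.8% of all genes, and apart and higher for 2, against 17.1%, which were Fzd6 and Ryk, named after their values were seen. The log2 signals of Fzd8 were 7.91, 8.16 and 8.16 in control mice and 6.83, 6.72 and 6.62 in TCE mice. The groups were well apart. Fzd8 fell by 1.35 on the log2 scale (SE 0.13, limma adjusted p = 0.0074), and it was past the threshold without each mouse in turn, while with another background correction its change was -0.90 (adjusted p = 0.0143), under 2-fold. The methods' t-test after Benjamini-Hochberg ended the call (adjusted p = 0.0515).

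Of 20 extracellular and feedback inhibitors 8 were detected, 7 of them lower, with a median log2 fold change of -0.46. Groups were apart and lower for 4, against 10.8% of all genes. With all 6 mice none passed an adjusted p of 0.05 in limma or in the methods' t-test after Benjamini-Hochberg, and 3 were lower at an unadjusted limma p below 0.05, against 7.11% of all genes. Notum, an enzyme that removes the lipid from Wnt proteins, had 11.78, 11.75 and 11.79 in control mice and 10.69, 9.81 and 11.63 in TCE mice. The TCE mice were all lower but spread widely, and its log2 fold change of -1.06 (limma adjusted p = 0.267) was -0.61 without TCE mouse 2. Dkk3, a Dickkopf family protein, was at -0.38 (limma adjusted p = 0.242). Dact1 had 6.24, 6.20 and 6.46 in control mice and 5.25, 5.33 and 4.14 in TCE mice. It entered the count of lower genes through the control group, since it was well above background on 3 control but only 2 TCE arrays, so its fitted value of -1.39 (limma adjusted p = 0.102) is imprecise, and another background correction gave -0.54. Without TCE mouse 3, the lowest, Dact1 was past the threshold (-1.01, adjusted p = 0.0497), and without each other mouse it was not. Nkd1, an intracellular feedback inhibitor, had 9.73, 7.97 and 8.01 in control mice and 7.50, 7.59 and 7.65 in TCE mice. The value of Nkd1, -0.99 (limma adjusted p = 0.337), rested on control mouse 1, without which it was -0.41.

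Inside the cell, all 15 genes of the destruction complex and Dishevelled list were detected, with a median of 0.04 (-0.02 without TCE mouse 2 to 0.09 without TCE mouse 3), a range of -0.32 to 0.32 and 0 past an adjusted p of 0.05 in limma, and 1, the tankyrase Tnks, higher at an unadjusted p below 0.05, against 12.0% of all genes. Tnks was at 0.32, and at 0.08 (limma adjusted p = 0.824) with the mean of all its detected probes. The lower end of the range, Btrc, was at -0.61 without TCE mouse 2 and at -0.04 without TCE mouse 3. Btrc is named after its values were seen. Gsk3a was at 0.29 (0.17 without control mouse 3), Apc at -0.25 (-0.13 without TCE mouse 2) and Amer1 at -0.30 (-0.49 without TCE mouse 2 and -0.17 without TCE mouse 3). Of 14 TCF/LEF factors with their co-activators, co-repressors and inhibitors 12 were detected, with a median of -0.27, which was -0.04 without control mouse 3 and -0.40 without control mouse 1. The range was -0.87 to 0.31, and its lower end, Cdc73, rested on control mouse 3, with 6.85, 6.97 and 10.18 in control mice and 7.14, 7.23 and 7.03 in TCE mice, and was at 0.22 without that mouse; it is named after its values were seen. In limma 0 passed an adjusted p of 0.05, and 3 were lower at an unadjusted p below 0.05, against 7.11% of all genes, namely the co-activator Bcl9 (-0.48, and -0.20 with another background correction), the co-repressor Tle2 (-0.35) and Ctnnbip1 (-0.44), an inhibitor of β-catenin. Bcl9l was at 0.31, and at 0.18 without control mouse 1. The list holds genes of opposite effect, with 4 Tle co-repressors among those detected. Of 11 Wnt targets known from other tissues 7 were detected, with a median of 0.03 (0 without TCE mouse 3 to 0.14 without TCE mouse 1), a range of -0.80 to 0.70, 0 past an adjusted p of 0.05 in limma, and 2 lower and 1 higher at an unadjusted p below 0.05, against 7.11% and 12.0% of all genes. The cell cycle gene Ccnd1 was at 0.70 (limma adjusted p = 0.0809) and passed an adjusted p of 0.05 with another background correction (0.0474) and with array weights (0.0358). Sp5 was at -0.80 (0.17), Ephb3 at -0.40 (0.225) and Tnfrsf19 at 0.26 (0.447), which was 0.41 without TCE mouse 1 and 0.16 without TCE mouse 3. The upper end of the range moved to Myc, at 1.29, without control mouse 3. Myc, named after its values were seen, was at 0.59 with all mice and at 0.17 without control mouse 2.

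Other genes known from pericentral hepatocytes gave a mixed picture. Of 20 on the list 18 were detected, 13 of them lower, with a median log2 fold change of -0.49, and 12 had groups apart and lower in TCE mice, against 10.8% of all genes, while 2 were apart and higher, against 17.1%. At an unadjusted limma p below 0.05 there were 11 lower, against 7.11% of all genes, and 2 higher, against 12.0%. The changes ranged from -2.5 to 1.87. The lower end was Cyp7a1, named after its values were seen. Its groups were apart, but it did not pass an adjusted p of 0.05 (limma adjusted p = 0.118). Cyp2c37, a cytochrome P450, had 14.34, 14.33 and 14.21 in control mice and 13.19, 13.15 and 13.45 in TCE mice. The groups were apart, and Cyp2c37 fell by 1.03 (SE 0.13, limma adjusted p = 0.0207), a call that held only without TCE mouse 3 (0.0291) and reached 0.101 without the others. With another background correction the change of Cyp2c37 was just under 2-fold (adjusted p = 0.00553). Its call was also lost with no filter on dim probes (0.0706) and in the methods' t-test after Benjamini-Hochberg (0.0717). Cyp2c54 (-0.91, limma adjusted p = 0.0201) and Cyp1a2 (-0.90, 0.0355) passed the adjusted p but not 2-fold, and both lost the call whichever of the 6 mice was left out. Both are named because they complete the count of 3 genes of this list that fell, against 0.587% of all genes. That count was 6 with another background correction, with array weights and with a variance prior made both robust and dependent on intensity, 4 among probes well above background on all 6 arrays, 1 with the mean of all detected probes of a gene, and 0 within slide 2 or with slide as a block, with no filter on dim probes and in the methods' t-test after Benjamini-Hochberg. The share of all genes that fell is given for the main analysis only. Probes past the threshold in either direction were 321 there and 233 with another background correction. They were 223 among probes well above background on all 6 arrays and 96 with no filter on dim probes.

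Aldh3a2, a fatty aldehyde dehydrogenase, went the other way. It had 9.86, 9.84 and 10.01 in control mice and 11.62, 12.22 and 11.47 in TCE mice. All TCE mice were far above the control mice, and Aldh3a2 rose by 1.87 on the log2 scale (SE 0.21, limma adjusted p = 0.0145). It was the 1 gene of this list that rose, where 1.80% of all genes rose at an adjusted p of 0.05 and 1.30% past the threshold. The call was lost without each control mouse and without TCE mouse 1, with adjusted p from 0.0538 to 0.0773 at changes between 1.84 and 1.94, and it held without TCE mouse 2 (1.64) and without TCE mouse 3 (2.02). It was also lost with no filter on dim probes (0.0825) and in the methods' t-test after Benjamini-Hochberg (0.0846). Cyp2e1, the P450 that starts the oxidation of TCE, was singled out after its values were seen and had log2 signals of 18.16, 18.03 and 18.09 in control mice and 18.06, 17.91 and 18.00 in TCE mice, with groups that overlapped (limma adjusted p = 0.669).

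For the opposite end of the lobule, all 20 genes of the periportal list were detected, with a median log2 fold change of -0.06. That median was -0.21 with 14 of 20 lower without TCE mouse 1 and -0.02 with 10 lower without TCE mouse 2, and it was -0.12 without control mouse 2 and -0.11 without control mouse 3, while that of the other pericentral genes stayed between -0.53 and -0.42. Groups were apart and lower for 7, against 10.8% of all genes, and apart and higher for 2, against 17.1%. At an unadjusted limma p below 0.05 there were 5 lower, against 7.11% of all genes, and 2 higher, against 12.0%. Igfals, which encodes a binding partner of insulin-like growth factors, was the 1 gene that fell, against 0.587% of all genes at an adjusted p of 0.05 and 0.429% past the threshold, with 11.92, 11.80 and 11.56 in control mice and 10.74, 10.72 and 10.43 in TCE mice. It fell by 1.13 (SE 0.15, limma adjusted p = 0.0251) and lost the call whichever mouse was left out (0.054 to 0.118). The call was also lost with no filter on dim probes (0.0944) and in the methods' t-test after Benjamini-Hochberg (0.087). Relative to the control means, the median of the other pericentral genes was -0.45, -0.58 and -0.47 in TCE mice 1, 2 and 3, and that of the periportal genes 0.07, -0.32 and -0.12. In control mice 1, 2 and 3 it was 0.08, -0.05 and -0.04 for the other pericentral genes and 0.15, -0.03 and -0.09 for the periportal genes. The periportal value of TCE mouse 1 thus lay within the control range. No test of the difference between the lists was made.

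Genes that handle glutamate, glutamine and ammonium outside the member list went both ways, with 7 higher and 5 lower among those detected. Pycr1 entered the count of higher genes only through the TCE group. Slc38a5 (-0.32), named after its values were seen, entered that of lower genes only through the control group. It was well above background on 3 control and 2 TCE arrays. No test of this list against Glul and Slc1a2 was made. Of 17 listed 12 were detected, with a median of 0.08 (-0.02 without control mouse 3 to 0.12 without TCE mouse 1) and 0 past an adjusted p of 0.05 in limma, and 2 higher at an unadjusted p below 0.05, against 12.0% of all genes. These were the glutamine transporter Slc38a2 (0.63, limma adjusted p = 0.172) and the mitochondrial aminotransferase Got2 (0.34, 0.266), which was at 0.11 with another background correction. Prodh, which starts proline breakdown, was at -0.74 (limma adjusted p = 0.303) and at -0.42 without TCE mouse 2. Pycr1, of proline synthesis, had 3.94, 5.46 and 5.44 in control mice and 6.61, 4.99 and 6.20 in TCE mice. It was well above background on 2 control and 3 TCE arrays, and its value of 0.99 (limma adjusted p = 0.419) was 0.48 without control mouse 1, 0.65 without TCE mouse 1 and 0.38 with another background correction.

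**Figure D3:**
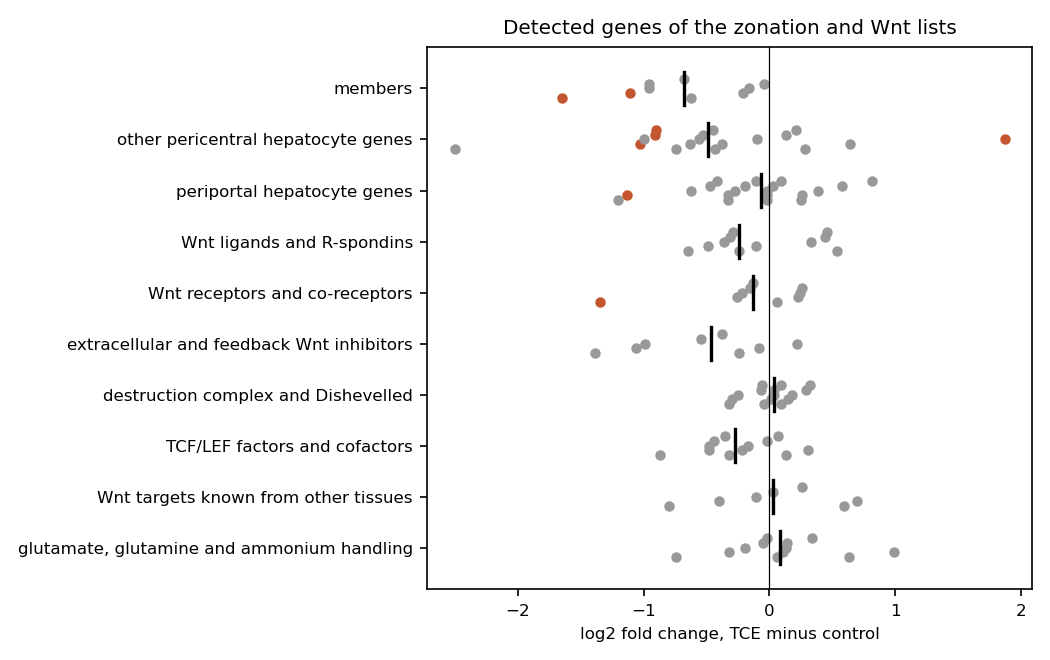
Log2 fold change of TCE against control mice (horizontal axis) of each detected gene in the member list and in 9 lists of zonation, Wnt pathway and glutamate genes, in orange for a limma adjusted p of 0.05 or less and grey otherwise, with the median of each list as a black bar. The medians of the members (-0.68) and the other pericentral genes (-0.49) lie below that of the periportal genes (-0.06, and -0.21 to -0.02 without 1 mouse), and the spread inside the lists is wide.

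Markers of other liver cells were read as a check on the tissue. Endothelial cells are a source of Wnt ligands. Their markers were lower in TCE mice for 12 of 12 genes, against 46.9% of all genes, with a median of -0.31. In limma 0 passed an adjusted p of 0.05. At an unadjusted p below 0.05 there was 1, against 7.11% of all genes that were lower at that p. Groups were apart and lower for 3 of these markers, against 10.8% of all genes. Their summed linear signal was 29300, 28400 and 28400 in control mice 1, 2 and 3 and 15900, 29800 and 27500 in TCE mice 1, 2 and 3. Bright probes weigh most in such a sum, and the probe of Clec4g gave the highest signal. Its log2 signals were 13.61, 13.38 and 13.42 in control mice and 12.46, 13.84 and 13.53 in TCE mice. In this sum TCE mouse 1 stood apart. Without it, 7 of 12 endothelial markers were lower and their median was -0.10. The median change of the members without it was -0.70 and that of Slc1a2 -1.70, while Lgr5 was at -1.09 (limma adjusted p = 0.129). Hepatocyte markers were detected for 7 of 7 genes on the array (median -0.06, highest signal from the probe of Serpina1a), Kupffer cell and leukocyte markers for 8 of 8 (median -0.08), stellate cell markers for 6 of 7 (median -0.21), smooth muscle markers for 4 of 6 (median -0.34), bile duct markers for 3 of 5 (median -0.22) and pancreatic acinar markers for 4 of 8 (median 0.14). Of these 6 lists 0 genes passed an adjusted p of 0.05 in limma, and at an unadjusted p below 0.05 there were 2 hepatocyte, 1 Kupffer cell or leukocyte, 1 stellate and 1 smooth muscle marker, all lower. The smooth muscle marker Cnn1 is not in that count, since it was well above background on 3 control and 0 TCE arrays. Its signal was at least 1.71-fold lower in TCE mice, against the limit described for Slc1a2, and with Cnn1 at this limit the smooth muscle median was again -0.34. Without 1 mouse in turn, the medians ran from -0.11 to -0.02 for hepatocyte, -0.20 to -0.02 for Kupffer cell and leukocyte, -0.33 to -0.14 for stellate, -0.41 to -0.29 for smooth muscle, -0.30 to -0.07 for bile duct and 0 to 0.20 for pancreatic markers. The part of these cells in the values of the members was not tested.

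Promoter windows, 250 bases before to 50 after a gene's start, were taken from RefSeq (GRCm38.p6), and 6 of the 10 members, Axin2, Ctnnb1, Glul, Oat, Rnf43 and Slc1a2, had one, with 8 windows in all. The set of windows used held none for Lgr5, Rhbg, Tbx3 and Znrf3, which were therefore not searched. The letters CTTTGAT, a core of TCF/LEF binding sequences, were searched on both strands, and 1 member window held them, that of Slc1a2. Of all 32851 windows 3.73% held them. The 250 bases before the Slc1a2 start are shown because this was the 1 member window with the match. They lie on the plus strand at chr2:102706188-102706437 (GRCm38.p6), and the capitals mark the match, which reads ATCAAAG on this strand and begins 207 bases before the start.
Slc1a2: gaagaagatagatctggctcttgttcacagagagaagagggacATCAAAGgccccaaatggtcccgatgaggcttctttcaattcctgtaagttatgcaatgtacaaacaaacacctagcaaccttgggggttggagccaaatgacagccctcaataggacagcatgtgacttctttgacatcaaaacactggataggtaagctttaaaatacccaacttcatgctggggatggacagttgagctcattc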

How the data were processed

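Liver RNA of 6 mice was measured on 1-colour Agilent arrays, each mouse on its own array. The authors scanned the arrays and extracted spots with Agilent Feature Extraction 10.7.1.1, per the submitters' processing notes, and the deposited intensity of each spot is corrected for background. The deposited summary from the authors gives group means of log2 values after quantile normalization, which was used as an alternative only, and the gene annotation, with positions on mm9. Control spots were left out, and between 123 and 189 outlier spots per array were set to missing. Intensities were converted to log2 (no pseudocount), averaged over the spots of each probe and quantile normalized across arrays. No spot was saturated. The number of arrays limits the precision. Where 0 TCE arrays measured a probe above background, the difference is given as a limit, or not at all if the control mean was also at that level, and fitted values of probes dim on some arrays are imprecise.

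Detected probes were tested in R 4.3.3 by a two-sided limma 3.58.1 model (lmFit, eBayes) with group as its factor. Benjamini-Hochberg adjustment ran over all 22731 of them. Data were read with the data.table package, version 1.17.8. Where a gene had several detected probes, the brightest on average was used. All members were named, and in each list every gene past the threshold, or otherwise up to 4 with the lowest p; for cell markers only counts, medians and the brightest probe of some lists are given. The members and lists were chosen with earlier results of these data known. Gene symbols were updated by gene ID through RefSeq. The symbols Cyp2a5 and Tf, each on a list, matched no probe, and other names of these genes were not searched. Alternatives were other normalization, background correction, filters, blocks, weights, variance models, tests and probe rules, and each mouse left out. The fit was tested on simulated data, where the first bound on calls of the wrong sign was not met and was then loosened.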

Additional observations from a re-analysis of the deposited data

How the results depend on the processing

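Slc1a2 and Lgr5 were past the threshold in the main analysis, where 321 probes were, and the median log2 fold change of the members stayed between -0.82 and -0.58 in every alternative. Without 1 mouse in turn, 1 to 2 members were past the threshold and 1 to 2 past the adjusted p, with 126 to 272 probes. The normexp background left 1 and 1 member. No filter on dim probes left 1 and 1, with 96 probes. The slide block left 177 probes, the same as without control mouse 1, because that mouse is alone on its slide. Without adjustment, at p of 0.05, the methods' t-test gave 594 probes and 2 members with the condition on fold and 5 members without it. No share of all genes at that t-test p is given beside the 5 members. After Benjamini-Hochberg the t-test gave 35 probes and 0 and 0 members. Array weights and the intensity trend with a robust prior each gave 3 members past the adjusted p, Glul being the third, and no share of all genes is given for these settings. For mice with the same number, deviations from the group mean correlated at r = 0.09, 0.01 and -0.09. With 3 mice per group these values cannot exclude that the numbers pair the mice. The replicate block left 63 probes and 0 and 0 members. Its limma adjusted p values were 0.064 for Slc1a2, 0.0879 for Fzd8 and 0.158 for Glul. It also left 0 instead of 3 other pericentral genes that fell. Tbx3 turned sign, to 0.03 with the 75th percentile, 0.12 with the slide block, and between -0.40 and 0.17 without 1 mouse. List medians without 1 mouse, added after the data were examined, turned sign or reached 0 for the destruction complex (-0.02 without TCE mouse 2), the Wnt targets of other tissues (0 to 0.14), the glutamate genes (-0.02 without control mouse 3) and the pancreatic markers (0 to 0.20). Except where a reason is given, the cause was not tested. The median of all detected probes was 0.02, and 0.04 with the 75th percentile. Axin2, Znrf3 and the dim probes are limited by signal over background.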
